A study of Homo sapiens with 52 samples.

Results

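The transcripts of 10 Notch pathway genes were followed in fusion-positive rhabdomyosarcoma (FP-RMS) cells, a muscle-lineage tumour carrying PAX3-FOXO1, treated with chemical probes of chromatin regulators. The genes were taken by name from the 27043 genes measured in every sample. They are 3 receptors (NOTCH1, NOTCH2, NOTCH3), 4 ligands (JAG1, JAG2, DLL1, DLL3) and 3 transcription factors of the HES/HEY family (HES1, HEY1, HES6). Poly-A RNA of 52 samples was sequenced, and expression is given as TPM, a transcript level scaled for gene length and for the total of the sample. A screen supplied 44 samples, all at 6 h: 20 compounds, each in 1 sample at a high and 1 at a low dose, and 4 samples with the solvent DMSO, 2 at 0.2% to match the high doses and 2 at 0.1% to match the low doses. The high dose was 10 µM for 17 compounds and 5 µM for Cpd50, GSKJ4 and LAQ824, and the low dose was 10 times lower. Another experiment held 1 µM N1302 with 1 DMSO sample at 6 h, and a time course held 1 µM entinostat and DMSO at 1, 6 and 24 h, with 1 sample for each. All samples carry the fusion and no transgene is named in the labels. The screen samples are titled RH41 but their cell-line label reads RH4, whereas the other 8 samples are titled RH4. Both are established FP-RMS cell lines. Values were therefore compared within an experiment, except where a mean of both RH4 DMSO samples at 6 h is named.

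Notch receptors are cell-surface proteins that are cut when a ligand of the Jagged or Delta family on a neighbouring cell binds them. ADAM proteases and then the presenilin-containing gamma-secretase release the intracellular part, which enters the nucleus and turns the DNA-binding protein RBPJ from a repressor into an activator. HES1 and HEY1 are classical targets and are themselves repressors. In muscle progenitors, Notch activity is known to hold back differentiation driven by MYOD1, whereas HES6 is a relative that opposes HES1 and accompanies differentiation.

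The samples held between 5737939 and 41415071 reads, as recovered from the TPM values. Several flow cells were used, as the codes in the file names show. DMSO library 1 of each concentration, Cpd50 and GSKJ4 were run on C4JM1ACXX, DMSO library 2, LAQ824 and MC1568 on H144EBGXX, GSKLSD1 and UNC-1215 on H0VWNAGXX, and the other 14 compounds on C5JW5ACXX. The latter 2 flow cells held no DMSO. Over 10378 genes, DMSO libraries 1 and 2 differed with a variance 1.89 times that of counting noise, a difference shared by both concentrations and moving with the flow cell. The difference between the concentrations was 2.08 times counting noise. What remained beyond both differences was 0.995 times counting noise. The libraries of a concentration may thus be 1 library run on 2 flow cells and were counted as 1 sample, so means ± SD in screen DMSO have n = 2 concentrations. All 8 FP-RMS markers examined, among them MYOD1, MYOG, DES and FGFR4, were above 10 TPM in each of the 8 DMSO samples, with the lowest at 10.8 TPM (TFAP2B). The summed level of 7 markers of leukocytes, endothelium, epithelium, hepatocytes and glia was between 0.274 and 1.23 TPM in DMSO and at most 4.65 TPM in any sample. PTPRC, the leukocyte marker, was at 0 in 48 of 52 samples. In bulk samples such as these, fewer cells of a type and less RNA per cell cannot be told apart.

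In the hg19 build used by the files, and by the GENCODE annotation lifted to that build, NOTCH1 lies on chromosome 9 (139388885 to 139440238), NOTCH2 on chromosome 1 (120454176 to 120612317) and NOTCH3 on chromosome 19 (15270444 to 15311792), all on the minus strand. JAG1 lies on chromosome 20 (10618332 to 10654694), JAG2 on chromosome 14 (105607318 to 105635161) and DLL1 on chromosome 6 (170591294 to 170599697), also on the minus strand, and DLL3 lies on the plus strand of chromosome 19 (39989557 to 39999121). HES1 occupies the plus strand of chromosome 3 (193853931 to 193856401). HEY1 lies on the minus strand of chromosome 8 (80676245 to 80680098) and HES6 on the minus strand of chromosome 2 (239146908 to 239148765). All are protein-coding genes. The values are sums over each whole gene. Exons of JAG1, JAG2 and DLL1 share 306, 469 and 370 bases with exons of another annotated gene (FAM120B for DLL1), and since the strand used in counting is not given, reads there may be shared. No such overlap was found for the other 7.

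Cells in DMSO expressed all 10 genes. HES6 was highest in screen DMSO at 220.0 ± 5.08 TPM (SD, n = 2), followed by NOTCH3 at 108.0 ± 4.83, NOTCH2 at 88.7 ± 1.17, DLL1 at 71.96 ± 0.0651, NOTCH1 at 62.5 ± 3.82 and HES1 at 59.0 ± 0.488 TPM. HEY1 followed at 26.9 ± 0.520, JAG1 at 19.9 ± 1.47, JAG2 at 12.5 ± 2.51 and DLL3 at 3.32 ± 0.208 TPM, so that the levels spanned 66.2-fold. In this order only the neighbours NOTCH1 (59.7 to 66.1 TPM over the 4 libraries) and HES1 (56.1 to 61.2 TPM) overlapped. Among ligands, cells in DMSO thus held more DLL1 than JAG1, JAG2 and DLL3 transcripts. At 0.2% DMSO, JAG2 stood at 10.6 and 10.8 TPM, and at 0.1% at 13.9 and 14.7 TPM, the largest relative spread among the 10. Setting 0.2% against 0.1% DMSO with limma called 0 of 10 members and 0% of 16359 genes (adjusted p below 0.05), with 4 members and 1548 genes at an unadjusted p below 0.05. Here the 4 libraries entered as separate samples. If those of a concentration are 1 library, the spread in this test holds differences between runs only, and no conclusion on the solvent is drawn from it.

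**Figure D1:**
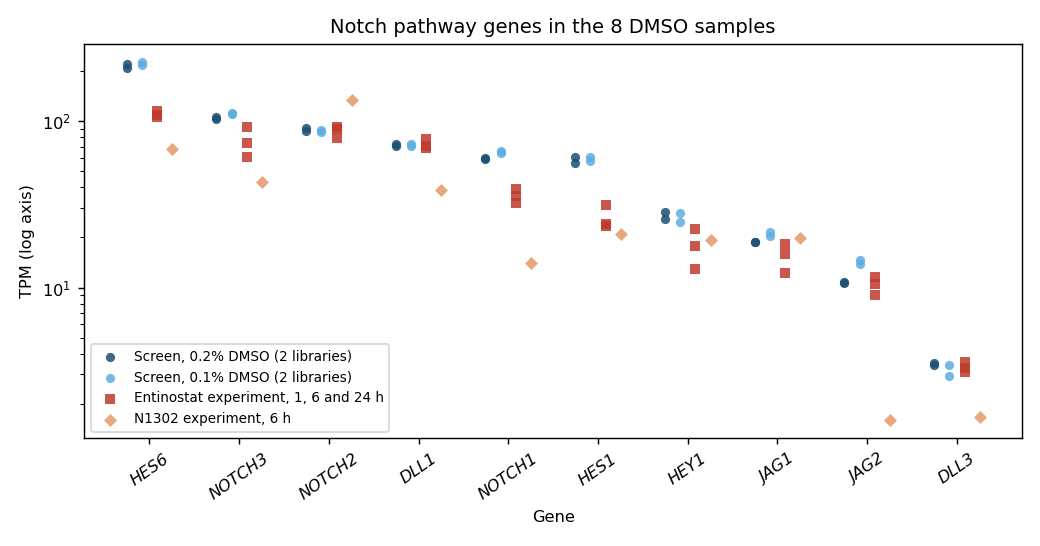
TPM on a log axis of each gene in the 8 DMSO samples, with 1 point for each library. Screen libraries of a gene lie close together, and HES6, NOTCH3, NOTCH1, HES1 and HEY1 are lower in all 4 samples of the other experiments.

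The controls titled RH4 had the same 10 genes at other levels. HES6 was between 67.9 and 115 TPM, NOTCH1 between 13.98 and 39.1 TPM and HES1 between 21.1 and 31.5 TPM in those 4 samples, all below the screen controls. The 2 controls at 6 h also differed from each other. JAG2 stood at 1.59 TPM in the N1302 control and at 9.03 TPM in the entinostat control, NOTCH1 at 13.98 against 35.4 TPM, DLL1 at 38.7 against 71.1 TPM and NOTCH2 at 134.6 against 90.1 TPM. Title, experiment and sequencing run changed together here and cannot be told apart.

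Promoter sequence is shown for 4 members, JAG1 and JAG2 because they hold most of the changes below, and HES1 and HES6 because they are the factors that changed. RefSeq (GRCh38.p14) gave promoters for 7 of the 10 members. The table held none for DLL1, DLL3 and HEY1. The 250 bases before the start site were searched on both strands for the RBPJ core TGGGAA, for the N-box CACNAG, which HES factors can bind, and for the E-box CANNTG, which MYOD1 and its relatives bind. Matches are in capitals, and no match overlapped another. JAG1 (chr20:10674000-10674249, minus strand) held no match. JAG2 (chr14:105168777-105169026, minus strand) held 2 E-boxes beginning 42 and 36 bases before the start. HES1 (chr3:194135898-194136147, plus strand) held 2 RBPJ cores, beginning 84 and 70 bases before the start, and 3 N-boxes, beginning 165, 132 and 58 bases before it. HES6 (chr2:238240039-238240288, minus strand) held 1 E-box beginning 158 bases before it.
JAG1: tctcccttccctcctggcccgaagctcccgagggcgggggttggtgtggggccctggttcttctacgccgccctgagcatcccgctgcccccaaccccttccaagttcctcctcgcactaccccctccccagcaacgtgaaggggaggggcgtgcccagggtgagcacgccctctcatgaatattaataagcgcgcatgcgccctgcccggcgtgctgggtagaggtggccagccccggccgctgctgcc
JAG2: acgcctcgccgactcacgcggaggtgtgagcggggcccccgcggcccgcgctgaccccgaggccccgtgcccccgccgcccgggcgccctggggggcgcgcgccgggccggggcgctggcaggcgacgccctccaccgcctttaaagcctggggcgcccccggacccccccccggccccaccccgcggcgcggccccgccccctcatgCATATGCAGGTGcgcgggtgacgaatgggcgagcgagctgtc
HES1: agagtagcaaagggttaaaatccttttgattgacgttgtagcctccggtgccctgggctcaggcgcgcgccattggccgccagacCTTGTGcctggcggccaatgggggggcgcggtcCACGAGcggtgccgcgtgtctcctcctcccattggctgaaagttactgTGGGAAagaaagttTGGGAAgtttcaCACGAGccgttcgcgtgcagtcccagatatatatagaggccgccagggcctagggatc
HES6: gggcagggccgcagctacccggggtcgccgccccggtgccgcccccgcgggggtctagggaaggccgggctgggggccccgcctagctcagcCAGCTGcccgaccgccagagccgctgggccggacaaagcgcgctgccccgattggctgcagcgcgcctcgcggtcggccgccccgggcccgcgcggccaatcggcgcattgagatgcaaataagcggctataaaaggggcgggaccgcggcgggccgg

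At least 1 RBPJ core was present in 20.8% of 35116 promoters of that length, at least 2 in 2.90%, an N-box in 32.04% and an E-box in 61.8%. Among the 7 members with a promoter in the table, the RBPJ core occurred in HES1 alone, the N-box in HES1 and NOTCH3, and the E-box in JAG2 and HES6. NOTCH1, NOTCH2 and JAG1 had none of the 3. Such matches are letters in a window and were not tested for binding.

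The screen asked which probes of chromatin alter transcription in these cells. Both doses of a compound were set against DMSO with limma on log2(TPM + 1), in a single fit of the 16359 genes that reached 1 TPM in 2 samples or more, and a gene was called changed at an adjusted p below 0.05. Changes are differences on that log2 scale ± SE and understate the change of low genes. Among the 200 tests of 10 members and 20 compounds, 19 passed, 18 of them increases. The Jagged ligands JAG1 and JAG2 accounted for 9 of the 19. The receptors accounted for 6 and the HES/HEY factors for 2, and HEY1 was the member that passed under no compound. The 2 samples of a compound are a high and a low dose, and the fit has no dose term. Its spread therefore holds the difference between doses, and the p-values do not measure spread between replicates. The labels do not say that the 2 doses of a compound came from separate cultures, so the rest of the spread may be technical.

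Members' counts are read beside the share of all genes that a compound changed. LAQ824, an HDAC inhibitor, changed 53.1% of all genes and 4 members (3 higher, 1 lower), Bromosporin, aimed at bromodomains, 35.8% and 4 members (all higher), WT161, aimed at HDAC6, 32% and 2 members (both higher), and MC1568, aimed at HDAC4/5, 22.5% and 5 members (all higher). These shares of members lie near or below the shares of all genes except under MC1568. GSKLSD1, aimed at the demethylase LSD1, changed 3.51% of genes and 3 members (all higher), and Cpd50, aimed at Jumonji demethylases, 5.7% and 1 member (higher). No member passed under the other 14 compounds. The share of all genes called was 12.1% for UNC0638, 3.41% for SGC-CBP30, 2.7% for Trametinib, 1.41% for LSD-690, 0.587% for LSD-519 and 0.465% for PFI-2. It was 0.183% for SGC0946, 0.171% for OJI-1, 0.116% for Merck60, 0.0734% for EZ-005, 0.0672% for UNC1999, 0.0489% for UNC-1215, 0.0428% for PFI-3 and 0.0122% for GSKJ4. Over these 14 compounds, 24 member tests had an unadjusted p below 0.05, and limma with voom weights on whole reads called 6. The voom fit took the 4 DMSO libraries as separate samples, although those of a concentration may be 1 library. The shares of all genes by these criteria are not given here, so these counts cannot be read as particular to the members.

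**Figure D2:**
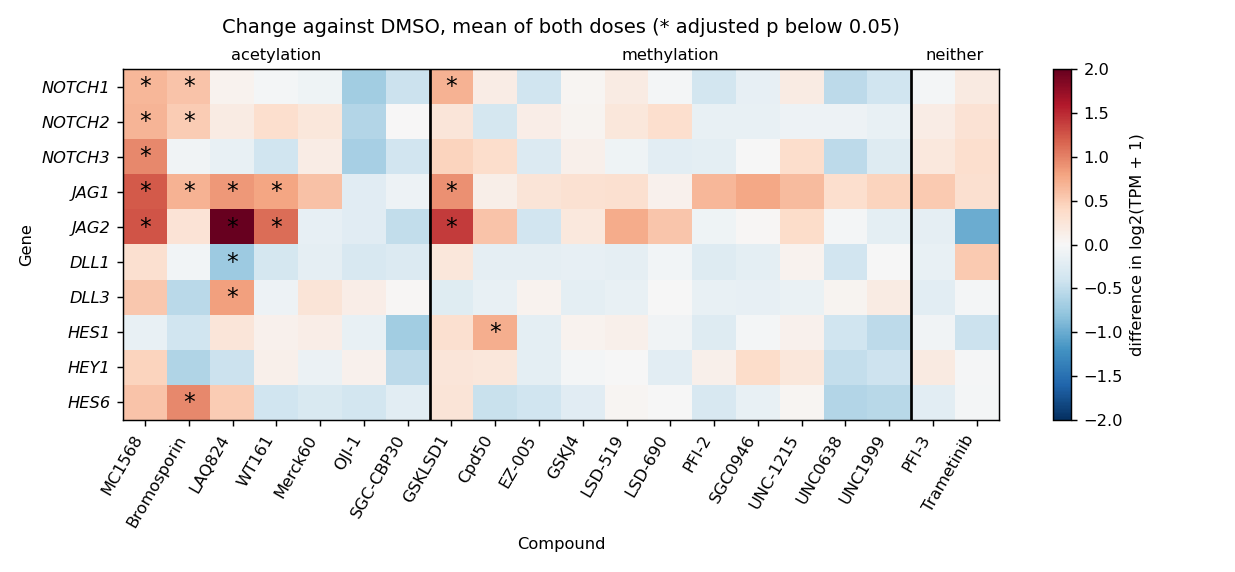
Change of each gene under each screen compound, as the difference in log2(TPM + 1) of both doses from DMSO, with compounds sorted by axis and an asterisk where the adjusted p was below 0.05. Asterisks gather in the JAG1 and JAG2 rows and under 6 compounds, and JAG1 is above 0 under 18 of 20 compounds.

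Among single members, JAG2 under LAQ824 rose most. JAG2, a ligand of the Jagged family, stood at 51.6 TPM at the high and 52.9 TPM at the low dose of LAQ824, against 10.6, 10.8, 13.9 and 14.7 TPM in the DMSO libraries. The groups did not overlap, and the change was 1.99 ± 0.28 (3.98-fold, adjusted p = 3.00e-06). Values outside the DMSO range were common in the screen: of 40 treated samples, JAG2 was above it in 20 and below it in 12. Under MC1568, JAG2 stood at 33.3 and 28.9 TPM (1.26 ± 0.28, adjusted p = 0.00254), and under GSKLSD1 at 29.4 and 40.3 TPM (1.403 ± 0.28, adjusted p = 0.00429). These 4 samples were likewise above every control. Under WT161 only the high dose stood far from DMSO, at 41.5 TPM against 18.9 TPM at the low dose (1.12 ± 0.28, adjusted p = 0.00375).

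The dependence of the JAG2 calls on single samples differed. JAG2 remained called under LAQ824 whichever dose or DMSO concentration was left out, with changes from 1.80 to 2.18. Without 0.2% DMSO the call was lost under MC1568 (1.07, adjusted p = 0.0506), WT161 (0.93, adjusted p = 0.0606) and GSKLSD1 (1.21, adjusted p = 0.118). It was also lost without the high dose for WT161 (0.57, adjusted p = 0.222) and MC1568 (1.16, adjusted p = 0.0587), and without the low dose for GSKLSD1 (1.18, adjusted p = 0.199).

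JAG2 ran from 5.08 to 52.9 TPM over the 40 treated samples (median 14.4), the widest range of the 10 genes at 10.4-fold. Its lowest values were both under Trametinib, an inhibitor of the kinases MEK1/2, at 5.08 TPM at the high dose and 6.38 TPM at the low dose, below every control. That change, -0.999 ± 0.28, missed the threshold (adjusted p = 0.0553). It passed with 4 separate DMSO libraries (adjusted p = 0.00928) and with voom (adjusted p = 0.0124). Both of these fits count as separate samples the libraries of a concentration, which may be 1 library. The 3 compounds aimed at LSD1 were given at the same doses. JAG2 was above the DMSO range in all their samples, at 29.4 and 40.3 TPM with GSKLSD1, 21.8 and 21.1 TPM with LSD-519 and 16.3 and 21.3 TPM with LSD-690. The latter 2 did not pass (0.74 ± 0.28, adjusted p = 0.449 and 0.55 ± 0.28, adjusted p = 0.488), the differences among the 3 were not tested, and GSKLSD1 was on another flow cell. UNC-1215, on the flow cell of GSKLSD1, had JAG2 at 16.4 and 16.1 TPM.

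JAG1, the other Jagged ligand, rose under 5 compounds. It stood at 54.4 and 42.4 TPM under the high and low dose of MC1568, against 18.8, 18.8, 21.5 and 20.4 TPM in the DMSO libraries (1.23 ± 0.22, adjusted p = 0.00034). Under GSKLSD1 it was 38.1 and 38.8 TPM (0.92 ± 0.22, adjusted p = 0.0171), and under LAQ824 35.2 and 38.6 TPM (0.86 ± 0.22, adjusted p = 0.00192). Treated and control samples did not overlap in any of these. JAG1 also passed under WT161 at 40.3 and 30.2 TPM (0.79 ± 0.22, adjusted p = 0.00809) and under Bromosporin at 36.4 and 29.7 TPM (0.70 ± 0.22, adjusted p = 0.0151). The calls for MC1568 and LAQ824 remained with any dose or DMSO concentration left out. The call for GSKLSD1 was lost in each of those 4 settings (0.85 to 0.99), and those for WT161 and Bromosporin were lost without the high dose (0.58 and 0.56) and without 0.2% DMSO (0.71 and 0.63).

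Beyond these calls, JAG1 was above all 4 DMSO libraries in 33 of 40 treated samples and below all of them in 5, whereas JAG2 was above in 20 and below in 12. JAG1 was above the controls in 19 of 22 samples of compounds that act on histone methylation and in 10 of 14 of those that act on histone acetylation. By flow cell, outside the acetylation compounds, this held for 16 of 18 samples on C5JW5ACXX (median 26.3 TPM), 4 of 4 on H0VWNAGXX (median 34.8 TPM) and 3 of 4 on C4JM1ACXX (median 22.3 TPM). C4JM1ACXX is the flow cell of these that also held DMSO. Set against the DMSO of that flow cell, JAG1 changed by 0.10 under Cpd50 (adjusted p = 0.683) and by 0.29 under GSKJ4 (adjusted p = 0.458). For compounds on C5JW5ACXX and H0VWNAGXX, the compound and the flow cell cannot be told apart in a comparison with DMSO.

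**Figure D3:**
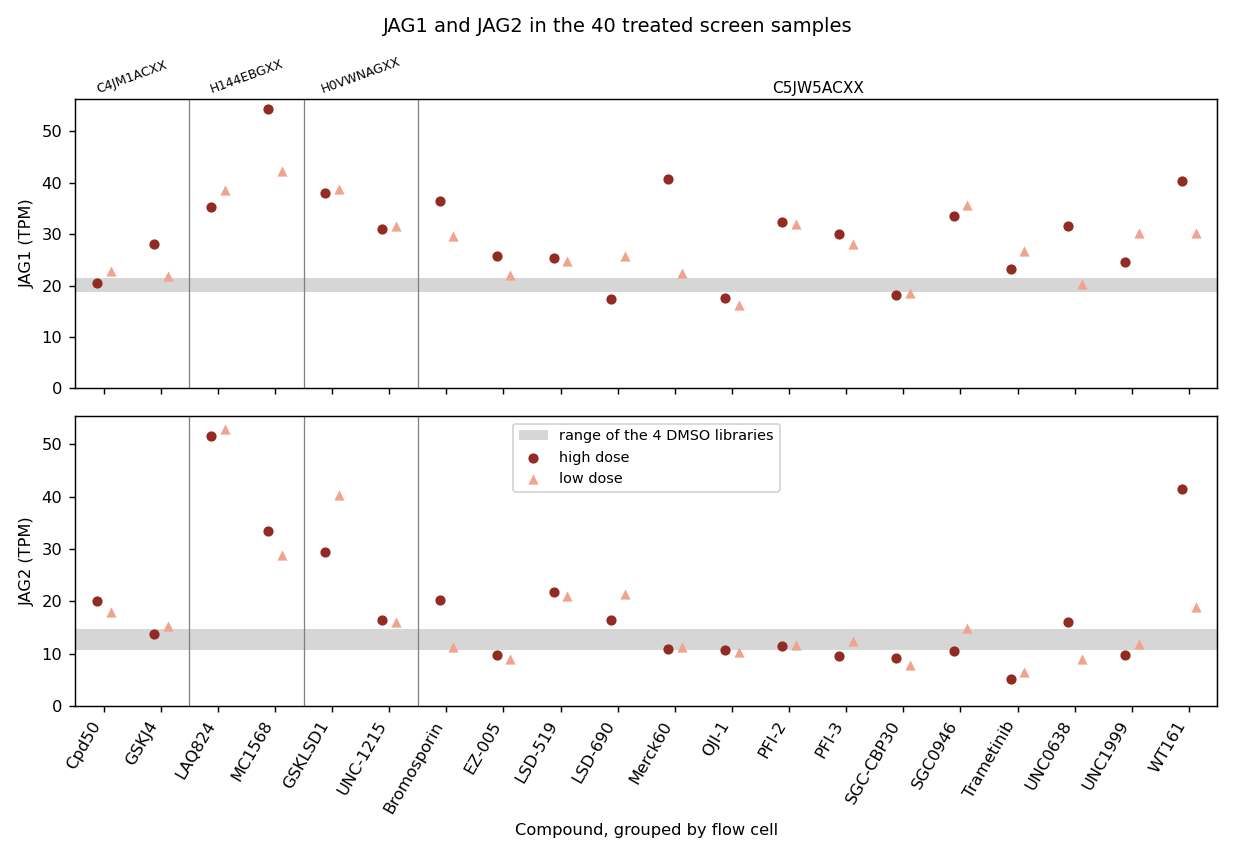
TPM of JAG1 (upper panel) and JAG2 (lower panel) in each treated screen sample, by compound and flow cell, with the high dose as a circle, the low dose as a triangle and the range of the 4 DMSO libraries in grey. JAG2 reaches 51.6 and 52.9 TPM under LAQ824 and lies below the grey band under Trametinib, while most JAG1 points lie above it.

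The Delta ligands gave 2 calls, both under LAQ824. DLL1, which triggers Notch in neighbouring cells, fell under LAQ824 to 41.7 TPM at the high and 44.6 TPM at the low dose, from 71.1, 73.0, 70.7 and 73.1 TPM in DMSO. All treated values were below all controls (-0.73 ± 0.16, adjusted p = 0.00057), and the call remained with any dose or DMSO concentration left out. It was the single decrease among the calls. DLL1 was below every control in 29 of 40 treated samples and above every control in 11, with a median of 64.0 TPM. Lying outside the controls therefore does not set LAQ824 apart. Its highest values were under Trametinib at 106 and 101 TPM (0.52 ± 0.16, adjusted p = 0.092), a change that passed with voom (adjusted p = 0.0138).

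DLL3, a divergent Delta protein that does not activate the receptor on a neighbouring cell, was near 3 TPM in most samples. Under LAQ824 it stood at 5.89 and 7.48 TPM, against 3.51, 3.43, 2.95 and 3.41 TPM in DMSO (0.82 ± 0.29, adjusted p = 0.0177). That call was lost without the low dose (0.67, adjusted p = 0.13) and without either DMSO concentration (0.87 and 0.77, adjusted p = 0.0515 and 0.0864). The lowest value was 1.75 TPM, at the high dose of Bromosporin.

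All 3 receptors rose under MC1568. NOTCH3 stood at 223 and 200.5 TPM, against 104, 106, 110.1 and 113 TPM in DMSO, without overlap (0.96 ± 0.20, adjusted p = 0.00162). Over the 40 treated samples NOTCH3 was above every control in 16 and below every control in 20. NOTCH2 stood at 154 and 131 TPM against 88.1, 91.0, 86.7 and 89.1 TPM (0.67 ± 0.15, adjusted p = 0.00302), and NOTCH1 at 106 and 93.8 TPM against 59.9, 59.7, 64.3 and 66.1 TPM (0.67 ± 0.18, adjusted p = 0.00974). The NOTCH3 call remained with any dose or DMSO concentration left out. Without the high dose NOTCH2 (0.55, adjusted p = 0.0936) and NOTCH1 (0.58, adjusted p = 0.145) were lost, and NOTCH1 was also lost without 0.2% DMSO (0.61, adjusted p = 0.0852).

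NOTCH1 also passed under GSKLSD1 at 97.3 and 106.7 TPM (0.70 ± 0.18, adjusted p = 0.0286), a call that no setting with a dose or DMSO concentration left out retained (0.63 to 0.76). Under Bromosporin NOTCH1 was 128 TPM at the high dose but 67.8 TPM at the low dose (0.57 ± 0.18, adjusted p = 0.0166). Without the high dose its change was 0.12. NOTCH2 under Bromosporin was 137 and 118 TPM (0.52 ± 0.15, adjusted p = 0.0114), with 0.40 left without the high dose (adjusted p = 0.206). Without 0.2% or 0.1% DMSO, NOTCH1 (0.51 and 0.63) and NOTCH2 (0.53 and 0.50) were not called under Bromosporin.

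The lowest value of each receptor was in the same sample, the low dose of OJI-1, an inhibitor aimed at HDAC8. NOTCH1 was 32.6 TPM, NOTCH2 49.8 TPM and NOTCH3 50.6 TPM there, and at the high dose they were 45.1, 69.7 and 91.3 TPM. None passed against DMSO (NOTCH1 -0.69 ± 0.18, adjusted p = 0.176, NOTCH2 adjusted p = 0.18). With 4 separate DMSO libraries NOTCH1 and NOTCH2 passed (adjusted p = 0.0231 for both), and with voom no receptor did (adjusted p = 0.0898, 0.0684 and 0.138 for NOTCH1, NOTCH2 and NOTCH3). Under UNC0638, aimed at the methyltransferase KMT1C, NOTCH1 stood at 42.3 and 43.6 TPM, below every control (-0.53 ± 0.18, adjusted p = 0.055). It passed with voom (adjusted p = 0.0252). Over the 40 treated samples NOTCH1 was below every control in 17 and above every control in 15, so lying below the controls does not set UNC0638 apart.

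The HES/HEY factors, of which HES1 and HEY1 are the classical targets named above, gave 2 calls, 1 for HES1 and 1 for HES6. HES1 rose under Cpd50 to 103 TPM at the high and 94.0 TPM at the low dose, from 56.1, 61.2, 57.9 and 60.7 TPM in DMSO, the highest values of HES1 in the screen (0.73 ± 0.20, adjusted p = 0.0279). The call was lost in each setting with a dose or DMSO concentration left out (0.66 to 0.79). Set against the DMSO of its own flow cell, HES1 changed by 0.78 under Cpd50 and passed (adjusted p = 0.0092). JAG1 and NOTCH1 did not pass under Cpd50.

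HES6 rose under Bromosporin to 592 TPM at the high dose and 308 TPM at the low dose, from 210.4, 222, 219 and 228 TPM in DMSO (0.95 ± 0.26, adjusted p = 0.00559). Without the high dose the change was 0.48 (adjusted p = 0.315). HES6 was below every control in 23 of 40 treated samples and lowest at 109 TPM, at the high dose of UNC0638. HEY1 ran from 12.7 TPM (UNC1999, high dose) to 41.2 TPM (MC1568, high dose), against 24.9 to 28.6 TPM in DMSO. Its changes lay between -0.60 (Bromosporin) and 0.44 (MC1568), and none passed. HES1 stood lowest under SGC-CBP30, a CREBBP/EP300 bromodomain inhibitor, at 29.9 and 43.2 TPM (-0.70 ± 0.20, adjusted p = 0.0524). It passed there with voom (adjusted p = 0.00685).

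FP-RMS markers moved under several of the same compounds. All 8 fell under LAQ824, 6 fell under each of Bromosporin and WT161, and 4 fell under SGC-CBP30, whereas under MC1568 2 rose and none fell, and under GSKLSD1 1 fell. Their summed level was 1267 to 3346 TPM in samples of acetylation compounds and 2694 to 3497 TPM in DMSO. The summed markers of other cells were 0.470 to 3.35 TPM in the acetylation compounds against 0.274 to 1.23 TPM in DMSO. Their part in the changes of Notch genes was not tested.

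The flow cells allowed 2 further references. LAQ824 and MC1568 shared a flow cell with 1 DMSO library of each concentration, and so did Cpd50 and GSKJ4. Against those libraries JAG2 changed by 1.97 under LAQ824 (adjusted p = 0.000413) and 1.23 under MC1568 (adjusted p = 0.0088), and DLL1 by -0.75 under LAQ824 (adjusted p = 0.000581). In that fit 7 members and 68.3% of genes passed for LAQ824, 8 members and 49% for MC1568, 4 members and 17.8% for Cpd50, and 0 members and 0.0978% for GSKJ4, where no member had an unadjusted p below 0.05 in the screen fit either. All 10 calls of these compounds remained.

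The 14 compounds of C5JW5ACXX, where there was no DMSO, were each set against the other 13. Under Bromosporin HES6 (1.22 ± 0.22, adjusted p = 0.000809), NOTCH1 (0.79 ± 0.15, adjusted p = 0.00107) and NOTCH2 (0.47 ± 0.13, adjusted p = 0.00794) passed, 3 members beside 40.5% of genes. JAG2 passed under WT161 (1.21 ± 0.24, adjusted p = 0.00112), the single member beside 34.6% of genes. JAG1 did not pass under Bromosporin (0.34, adjusted p = 0.154) or WT161 (0.43, adjusted p = 0.081). By this reference Trametinib changed 2 members beside 3.92% of genes, with JAG2 lower (-1.07 ± 0.24, adjusted p = 0.0158) and DLL1 higher (0.72 ± 0.13, adjusted p = 0.00506), and OJI-1 changed NOTCH2 (-0.71 ± 0.13, adjusted p = 0.0303) beside 0.232% of genes.

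The study contrasts probes of histone acetylation with probes of histone methylation. For the test here, compounds were sorted by the target in their labels. LAQ824, MC1568, WT161, Merck60, OJI-1, Bromosporin and SGC-CBP30 counted as acetylation (7 compounds). PFI-3, aimed at SMARCA4, and Trametinib counted as neither, and the other compounds as methylation (11 compounds). No member passed the test between the acetylation and methylation compounds. With limma on compound means, 0% of 16359 genes and 0 of 10 members passed, with 5018 genes and 0 members at an unadjusted p below 0.05. The count of genes rested on single compounds, since 3056 genes passed without OJI-1, 2673 without Merck60 and 2503 without MC1568, and 1614 passed with the high dose alone and 833 among genes averaging 5 TPM or more. Members passed in none of these settings, where their smallest adjusted p was 0.0503, without OJI-1. The smallest adjusted p among members was 0.233, for HES6, whose mean change was 0.11 for acetylation and -0.21 for methylation compounds. JAG1 averaged 0.55 ± 0.53 (SD, n = 7 compounds) for acetylation and 0.44 ± 0.27 (SD, n = 11) for methylation compounds, and it was above DMSO under 5 of 7 and 11 of 11 compounds. JAG2 averaged 0.54 ± 0.93 and 0.29 ± 0.51, and the acetylation compounds ranged from -0.49 under SGC-CBP30 to 1.99 under LAQ824. For every member the SD among the acetylation compounds exceeded the difference between axes.

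High and low doses differed 10-fold, and each was set against its own DMSO concentration. All compounds share these 2 DMSO concentrations, and a difference between them is added to every compound. JAG2 was 0.38 lower in 0.2% than in 0.1% DMSO on the log2 scale, JAG1 0.14, NOTCH1 0.12 and HES6 0.05. On the acetylation axis JAG2 was higher at the high dose relative to DMSO by 0.70 ± 0.45 (SD, n = 7 compounds), JAG1 by 0.40 ± 0.32, NOTCH1 by 0.37 ± 0.34 and HES6 by 0.45 ± 0.35. Without DMSO, the treated samples themselves differed by 0.32 for JAG2, 0.26 for JAG1, 0.25 for NOTCH1 and 0.40 for HES6. The high dose was then above the low dose in 5 of 7 compounds for JAG2, JAG1 and NOTCH1 and in 6 of 7 for HES6, against 7 of 7 and 6 of 7 relative to DMSO. LAQ824 had JAG2 at 51.6 TPM at the high and 52.9 TPM at the low dose. With limma 0 members and 0.483% of genes passed the matched test. An unadjusted p below 0.05 was found for 5 members, among them JAG2 (adjusted p = 0.101), beside 3197 of 16359 genes. With unmatched doses 0 members passed as well.

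On the methylation axis 0 members and 4.18% of genes passed the dose step. An unadjusted p below 0.05 was found for 3733 of 16359 genes and 1 member, JAG2 (0.33 ± 0.35, SD, n = 11 compounds, adjusted p = 0.0923). This step is smaller than the 0.38 that the DMSO concentrations add. Between the treated samples alone JAG2 differed by -0.05, with 5 of 11 compounds higher at the high dose. The 2 treated values lay far apart under UNC0638, where JAG2 was 16.0 TPM at the high and 8.96 TPM at the low dose. HEY1 was 12.7 TPM at the high and 30.7 TPM at the low dose of UNC1999, an inhibitor aimed at EZH1, while HES1 was 30.1 and 54.6 TPM.

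**Figure D4:**
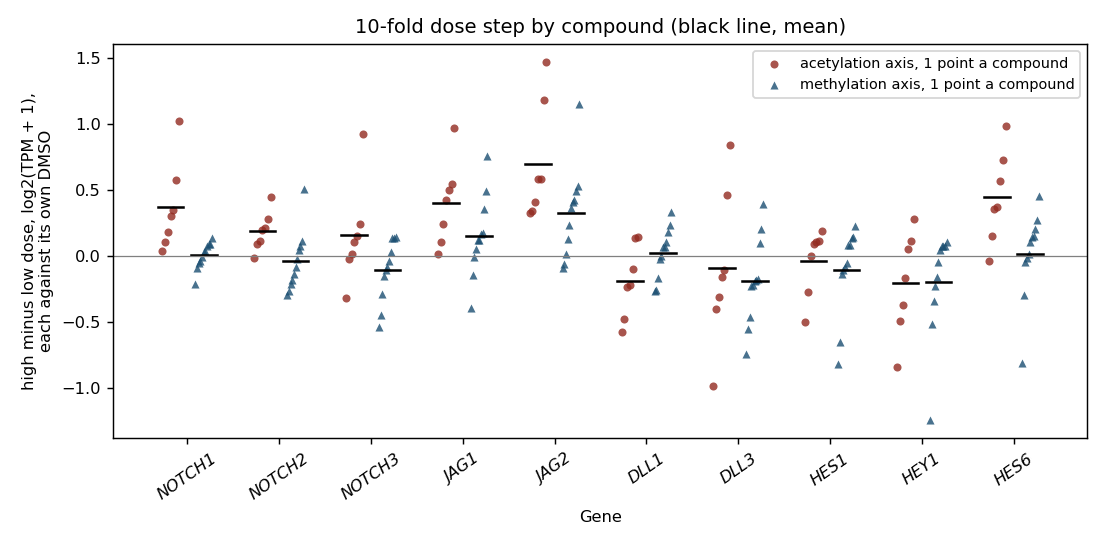
Difference between high and low dose in log2(TPM + 1), each against its matching DMSO, with 1 point for each compound of the acetylation (circles) and methylation (triangles) axes and a black line at the mean. For JAG2, JAG1 and NOTCH1 all 7 acetylation compounds lie above 0, and the DMSO concentrations, which every compound shares, add 0.38, 0.14 and 0.12 to each of these points.

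N1302 inhibits HDACs and was tested with 1 treated and 1 DMSO sample, so its values have no replicate check and no test. JAG2 went from 1.59 to 14.7 TPM (93 and 604 reads), a change of 2.60, larger than any other change of a member from its own DMSO in the N1302, entinostat or screen comparisons. DLL3 went from 1.67 to 6.92 TPM (40 and 116 reads, 1.57) and HES6 from 67.9 to 188 TPM (1.46), whereas NOTCH2 went from 134.6 to 61.5 TPM (-1.12) and DLL1 from 38.7 to 17.3 TPM (-1.11). These 5 members were past 2-fold, as were 30.9% of genes. JAG1 differed by 0.01 and NOTCH1 by -0.02.

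Median-ratio scaling shifted the N1302 sample by 0.37 on the log2 scale. NOTCH2 and DLL1 were then at -0.79 and -0.80, within 2-fold, and JAG1 was at 0.33, NOTCH1 at 0.29 (from -0.02) and NOTCH3 at 0.02 (from -0.31), while JAG2 (2.93), DLL3 (1.87) and HES6 (1.79) stayed past it. Against the mean of both DMSO samples at 6 h, JAG2 was 1.63 higher, DLL3 1.18, HES6 1.14, NOTCH2 was at -0.83 and DLL1 at -1.55. In the N1302 and entinostat samples the other-cell markers summed to 0.608 to 4.65 TPM, and their part in these values was not tested. Among the FP-RMS markers, the myogenic factor MYOG went from 391 to 32.2 TPM with N1302 and MYOD1 from 249 to 48.5 TPM. CHRNA1 went from 1116 to 654 TPM, CHRNG from 11.9 to 6.18, PAX3 from 12.4 to 1.19 and TFAP2B from 10.8 to 0.468 TPM. DES, by contrast, went from 514 to 671 TPM and FGFR4 from 389 to 399 TPM.

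Entinostat, aimed at HDAC1/2/3, was followed over time with 1 sample at each time. At 1 h no member was past 2-fold, as were 1.24% of genes, and HES1 had the largest change (23.5 to 31.0 TPM, 0.39). At 6 h JAG1 stood at 34.0 TPM against 16.0 TPM in its DMSO (1.05), the 1 member past 2-fold beside 6.08% of genes. Against the mean of both DMSO samples at 6 h JAG1 was 0.90 higher, within 2-fold, and JAG2 1.37 higher. HES1 was at 40.05 against 24.0 TPM (0.71) and HES6 at 167 against 106 TPM (0.65). At 24 h 4 members were past 2-fold beside 22.4% of genes. JAG1 was at 63.7 against 18.4 TPM (1.74), DLL3 at 12.5 against 3.08 TPM (1.72) and NOTCH2 at 206 against 91.9 TPM (1.16), and DLL1 was at 27.2 against 78.0 TPM (-1.49).

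At 24 h HES1 was 0.77 higher, HEY1 0.76 and HES6 0.77, all within 2-fold, and their changes were 0.71, 0.48 and 0.65 at 6 h and 0.39, 0.09 and 0.07 at 1 h. NOTCH1 was at 25.8 against 39.1 TPM at 24 h (-0.58) while NOTCH2 was higher. JAG2 was at 18.9 against 11.5 TPM (0.67). The DMSO samples themselves drifted, with JAG1 at 12.2, 16.0 and 18.4 TPM and HEY1 at 12.9, 17.8 and 22.5 TPM at 1, 6 and 24 h. At 24 h MYOG stood at 107 against 546 TPM in DMSO, MYOD1 at 113 against 367 and CHRNA1 at 171 against 770 TPM. CHRNG was at 5.15 against 35.3 TPM, FGFR4 at 396 against 677 and TFAP2B at 4.96 against 38.8 TPM. DES (328 against 243 TPM) and PAX3 (27.2 against 21.1 TPM) were higher. Of the endothelial markers there, CDH5 was at 1.78 and PECAM1 at 0.151 TPM. The epithelial markers KRT8 and EPCAM were at 1.52 and 0.244 TPM. Set beside each other at 6 h, JAG2 changed by 0.40 with entinostat and 2.60 with N1302, JAG1 by 1.05 and 0.01, and NOTCH2 by 0.24 and -1.12. Both HDAC inhibitors were given at 1 µM, but their controls differ as described above and these differences were not tested.

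**Figure D5:**
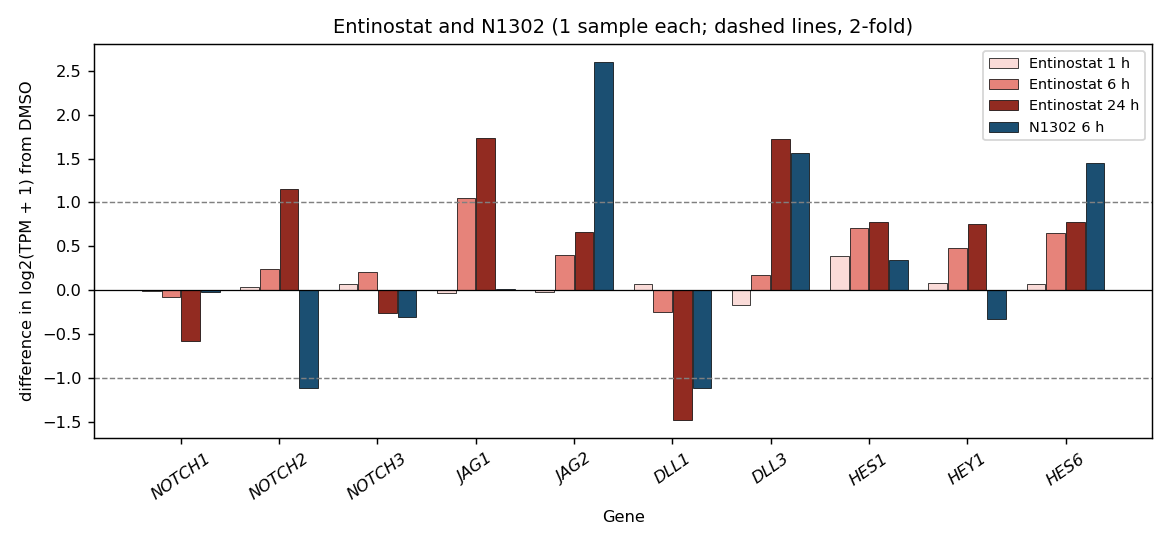
Difference in log2(TPM + 1) from the DMSO sample of the same experiment and time, with 1 bar for each comparison of single samples and dashed lines at 2-fold. JAG1, DLL3 and NOTCH2 bars are above the upper line and DLL1 below the lower at 24 h of entinostat, while JAG2 is the tallest bar under N1302.

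The wider pathway was followed in a list of 50 further genes, of which 47 were tested. Under LAQ824 16 rose and 15 fell (53.1% of all genes changed), under WT161 12 rose and 9 fell (32% of all genes), under Bromosporin 8 rose and 15 fell (35.8%), and under MC1568 8 rose and none fell (22.5%). Under UNC0638 6 fell (12.1%), under SGC-CBP30 5 fell (3.41%), under Cpd50 4 rose (5.7%) and under Trametinib 1 fell (2.7%). No gene of the list passed under the other 12 compounds. In all, 38 of the 47 passed under some compound, as did 78.5% of all genes.

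The largest called increases were of genes that are low in DMSO. NRARP, a target whose protein damps the Notch complex, was 0.235 to 0.755 TPM in screen DMSO and stood at 10.6 and 9.495 TPM under LAQ824 (2.90 ± 0.49, adjusted p = 2.77e-05), and it also rose under Bromosporin (2.36), WT161 (1.94) and MC1568 (1.44). HES7, a factor of the somite clock, rose under the same 4 compounds, to 9.67 and 11.6 TPM with WT161 (3.07 ± 0.43, adjusted p = 1.5e-05) and 8.91 and 7.71 TPM with LAQ824. DLL4, the Delta ligand known from endothelium, reached 4.38 and 4.72 TPM under LAQ824 (2.30 ± 0.40, adjusted p = 4.23e-05) and DNER, a ligand known from neurons, 16.2 and 5.98 TPM under WT161 (1.48 ± 0.32, adjusted p = 0.00118). HES4 reached 53.4 and 28.7 TPM under MC1568 (1.63 ± 0.44, adjusted p = 0.0099). HEYL, by contrast, was high in screen DMSO (182 to 208 TPM) and fell under Bromosporin, LAQ824 and SGC-CBP30.

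Of 9 corepressors in the same list, 5 fell under LAQ824, where 24.6% of all genes fell, 5 under WT161 (14.3% of all genes) and 3 under Bromosporin (23.4%), and none rose under these 3. The group was not tested. CTBP1 fell under all 3 and under UNC0638 (-0.74 ± 0.23, adjusted p = 0.0363). FURIN, which makes the first cut of the receptor, fell under 5 compounds. Fringe enzymes, which add sugars that tune ligand choice, gave both directions. LFNG fell under UNC0638, at 8.99 TPM at the high dose and 96.5 TPM at the low dose (-2.02 ± 0.56, adjusted p = 0.0218). MFNG, at only 0.501 to 0.745 TPM in screen DMSO, rose under 4 compounds. RFNG (44.8 to 48.2 TPM in screen DMSO) rose under 3 compounds and fell under 1. NEURL1B, which aids uptake of ligands, also fell under UNC0638, at 6.21 and 30.6 TPM (-1.22 ± 0.37, adjusted p = 0.0331). RBPJ itself rose under Cpd50 and fell under LAQ824.

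Over the 40 treated screen samples, levels of NOTCH1 tracked those of the other receptors, with Pearson's r = 0.74 with NOTCH3 and 0.66 with NOTCH2, and HES6 tracked NOTCH1 (r = 0.74). JAG1 and JAG2 had r = 0.57, HES1 and HEY1 r = 0.57, and DLL1 and JAG2 r = -0.28. Of all genes tested, TNK2 and PLAT were most like JAG2 (both r = 0.93), PXDN most like NOTCH3 (r = 0.92) and C6orf120 most like HES6 (r = 0.86). The likest genes were FLNA for NOTCH1 (r = 0.85), LAMC1 for NOTCH2 (r = 0.84), KIAA1211 for DLL1 (r = 0.83), TRIB2 for HEY1 (r = 0.82), CD82 for HES1 (r = 0.81), USP32P1 for JAG1 (r = 0.80) and MFSD13A for DLL3 (r = 0.72). These correlations describe samples that share compounds, flow cells and depth.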

How the data were processed

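The deposited files hold TPM values for 27043 gene symbols in each of 52 samples, one value per gene and sample and no pooling. According to the study's methods, the authors aligned poly-A reads (paired-end per the labels) to hg19 with STAR 2.5.3a and computed expression with RSEM 1.3.0, and the labels also name edgeR. Whole reads were worked out from the TPM values with a tolerance of 0.001 for all 23645 genes above 0 (median 15055060 reads per sample), and serve for depth and for voom, which was added after the data were seen. Main tests used the limma package (version 3.58.1, R 4.3.3), with its variance trend, on log2(TPM + 1), with Benjamini-Hochberg adjustment over 16359 genes and libraries of 1 DMSO concentration averaged, so that 42 columns entered the fit. Every adjusted p printed comes from limma, for voom as well, where the 4 DMSO libraries entered as separate samples. N1302 and entinostat had 1 sample per group and no test. All 10 members are reported. From the wider list the 3 largest called changes of each of the 5 compounds with most calls are named, with other listed genes as examples chosen after their values were seen, and for each member the likest of 3 genes by correlation (2 for JAG2). The members, lists and tests were chosen with earlier results of these data known. In a simulated compound comparison of 16359 genes, limma recovered 182 of 200 genes changed by 1.5 on the log2 scale, with 8 false calls. Every member call except JAG2 under LAQ824 (1.99) was smaller than 1.5, so the simulation does not show recovery at their size. Alternatives were another pseudocount, filters, scaling, references, covariates and samples left out. Python 3.11.15, numpy 2.4.6, pandas 2.3.3 and matplotlib 3.10.9 did the rest. DMSO libraries of 1 number shared a flow cell, from the file names, and their deviations from the concentration means had a correlation of 0.07 over genes. The fit with that number as a block is an alternative.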

Additional observations from a re-analysis of the deposited data

How the results depend on the processing

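The 19 member calls over the screen became 34 with 4 separate DMSO libraries, 33 with voom on whole reads (added after the data were seen) and 5 with a log2 change of at least 1. Voom also took the 4 DMSO libraries as separate samples, and those of a concentration may be 1 library. Counts of all genes in these fits are not given here, so gains and losses cannot be read as particular to the members. The member calls ranged from 7 to 23 when a dose or DMSO concentration was left out: 10 without the high doses, 23 without the low doses, 7 without 0.2% DMSO and 13 without 0.1% DMSO. Of the 19, 5 remained in all 4 of these settings: JAG2, JAG1 and DLL1 under LAQ824, and JAG1 and NOTCH3 under MC1568. The other settings gave 19 to 26. With only a compound's own samples and DMSO fitted, 7 of the 19 were lost: the 4 under Bromosporin, both under WT161 and JAG2 under GSKLSD1. With median-ratio scaling JAG1 (adjusted p = 0.061) and NOTCH1 (adjusted p = 0.11) under GSKLSD1 were lost. The 4 compounds that share a flow cell with DMSO had 10 calls, and 19 against that DMSO alone. Compounds of C5JW5ACXX had 6 calls. Against the other compounds of that flow cell 7 calls were made, with 4 of the 6 kept and 2 lost. With only its compounds outside the acetylation axis as reference 6 calls were made, again with 4 kept and 2 lost. Between axes, low values changed sign: NOTCH3 to 0.084 with the high dose alone, NOTCH1 to -0.11 and JAG1 to -0.0154 with the low dose alone, and JAG1 to -0.0617 and DLL3 to -0.0191 on C5JW5ACXX alone. The cause was not tested. No axis or dose-step setting called a member. With the library number, which marks the flow cell, as a replicate block, 0 members passed between 0.2% and 0.1% DMSO, as without it. Depth limits DLL3, with 40 and 116 reads in the N1302 experiment.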

Other observations

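The wider Notch list was also followed in the experiments with 1 sample per group, where no test was possible. Under N1302 10 of 47 genes were past 2-fold upward and 12 downward, beside 30.9% of all genes. NRARP went from 0.266 to 7.98 TPM, HES7 from 0.946 to 12.3 TPM, HES4 from 2.11 to 19.9 TPM and DNER from 2.31 to 16.4 TPM. RBPJ, the DNA-binding partner of the receptor, went from 156 to 39.97 TPM and ITCH, a ligase that marks the receptor for breakdown, from 84.8 to 20.8 TPM. With entinostat 0 genes were past 2-fold at 1 h and 3 at 6 h, all upward (NRARP, HES4 and APH1B), beside 1.24% and 6.08% of all genes. At 24 h 14 were past it upward and 2 downward, beside 22.4% of all genes, with DNER from 2.69 to 36.5 TPM, MFNG from 0.654 to 7.61 TPM and LFNG from 57.4 to 141.5 TPM, and with the deltex genes DTX3 and DTX4 downward. These genes were chosen as examples after their values were seen.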
